A study of Drosophila melanogaster with 6 samples.

Results

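Rab GTPases are small membrane-bound proteins that direct vesicle traffic in eukaryotic cells. Bound to GTP, a Rab protein sits on a particular membrane and recruits effectors such as tethers and motors, and bound to GDP it returns to the cytosol with a chaperone. Guanine nucleotide exchange factors switch Rab proteins on and GTPase-activating proteins switch them off. In phagocytic blood cells of the fly, Rab proteins of the endosomal route carry ingested particles to lysosomes. The genes described here are those with the current symbol Rab or RabX followed directly by a number. The RefSeq gene table holds 33 such genes, and 22 of them, among 11983 genes measured in all, had a probe set assigned to exactly 1 gene. Another 4, Rab9D, Rab9Db, Rab9E and Rab9Fa, share 1 probe set, which names no single gene. For the remaining 7, Rab1, Rab4, Rab5, Rab6, Rab7, Rab8 and Rab11, the annotation used here names no probe set, and they were not analysed here. The rule uses names only, but it was set with earlier results of these data known, and Rab32 was already on the study's list of lowered genes.

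The cells were S2 cells, a Drosophila melanogaster line of embryonic origin with features of blood cells, kept in medium with insulin and serum. One group received 0.1 mM protocatechuic aldehyde (PA), a plant phenol, for 2 h (3 samples), and the other received vehicle (3 samples). RNA of each sample was hybridized to 1 GeneChip Drosophila genome 2.0 array. The labels and methods do not say whether the 3 samples of a group were separate cultures, and the p-values therefore cover no more than the spread among these arrays, which could be technical.

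Each probe set has a MAS5 signal, an intensity on a linear scale. All 18769 probe sets that are not controls were tested with limma on the log2 scale, PA minus vehicle, and a gene was called at a Benjamini-Hochberg adjusted p under 0.05. Where several probe sets stood for 1 gene, the brightest was taken. Probes differ in how well they bind, so the signal of a gene was compared between groups and not with the signal of another gene. All arrays had the same trimmed mean of 500. Their 75th percentile, however, was 491 to 495 with PA and 514 to 533 with vehicle, and this difference in shape touches each small change given here. In the upper 50% of mean signal the median log2 change of all probe sets was -0.03. Of 9 blood cell markers, 8 lay in the upper 50% of signal. Their summed signal was 30060 to 31740 on the PA arrays and 29800 to 30750 on the vehicle arrays, and Hml (log2 change 0.14), NimC1 (0.15) and srp (-0.15) were called. Of 9 measured markers of other tissues (neurons, muscle, fat body, germline), 4 lay in the upper 50% of signal and none was called, and the part of either marker list in the changes below was not tested. The neuronal marker elav had a signal of 173 ± 28.6 with PA and 183 ± 9.04 with vehicle (SD, n = 3 each), and the muscle marker up was near 0 (3.33 ± 3.80 with PA and 1.79 ± 2.24 with vehicle).

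Transcripts of RabX1, a Rab of the endosomal system, were higher in PA-treated cells, and transcripts of Rab21, an early endosomal Rab, and of Rab32 (lightoid), a Rab of lysosome-related organelles, were lower. RabX1 was 1.25-fold of vehicle, Rab21 was 0.745-fold and Rab32 was 0.627-fold. The other 19 genes did not pass the test. Of the 22 genes, 1 was thus called higher and 2 were called lower, against 2.29% and 2.82% of all probe sets tested. Together this is 13.6% of the members against 5.10% of all probe sets. Calls depend on brightness, however, and 17 of the 22 genes lay in the upper 50% of mean signal, where 10.1% of all probe sets were called (4.50% higher and 5.59% lower) and 17.6% of these members. With 3 calls the member share is set by very few genes. With each array centred on its median the counts were 0 higher and 2 lower, and centring on the 75th percentile gave 2 higher and 2 lower. When the variance was not modelled as a trend, 0 members were called. At an unadjusted p under 0.05 the reported limma test gave 5 of 22 members, against 3196 of all 18769 probe sets and 28.8% of those in the upper 50% of signal, where these 5 lie, and the methods' t-test gave 6, against 14.4% and 23.5%. Among the 17 brighter members the 5 are 29.4%, close to the 28.8% of the background. The 6 of the methods' t-test are 35.3% of the 17, above its 23.5%. Past its fold limits the methods' t-test took 0 members as higher and 1, Rab32, as lower, against 1.89% and 1.23% of all probe sets. The study gave no scale for this test, and log2 signals were used here. Past the limits it took 354 probe sets as higher and 231 as lower, far more than the genes the study listed. The counts are not alike, since the study's list is titled as selected genes. Here all probe sets were counted, dim ones included. In RNA from whole cultures, fewer cells of a kind and less RNA per cell cannot be told apart.

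**Figure D1:**
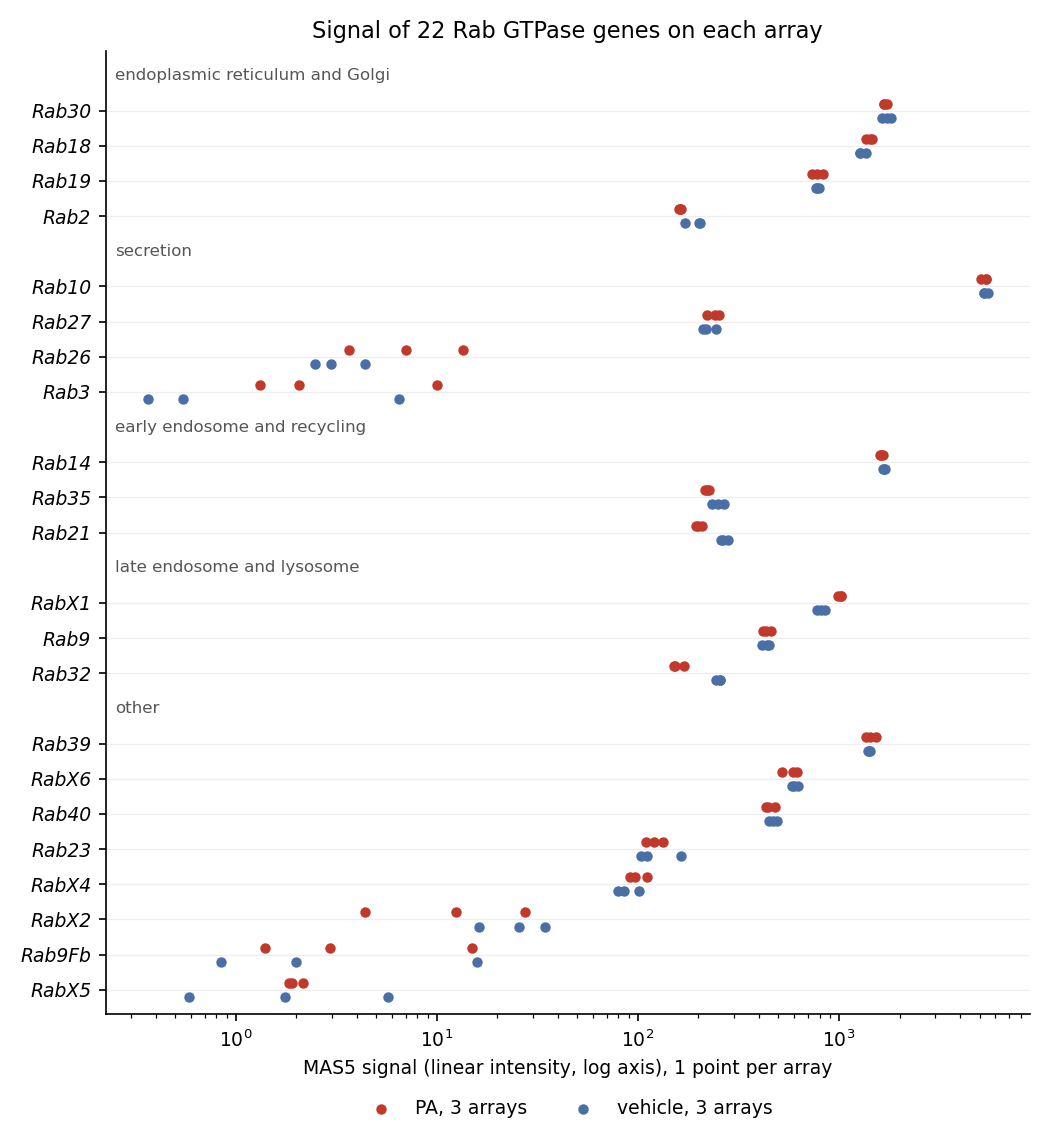
MAS5 signal (x axis, linear intensity on a log axis) of the 22 Rab genes on each of the 3 PA arrays (red) and 3 vehicle arrays (blue), 1 point per array, grouped by the membrane each Rab is best known for. The groups of arrays lie apart for 7 genes, and the 5 dim genes, with signals of 0.365 to 34.6, scatter widely within a group.

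Rab32 marks lysosome-related organelles, and its fly gene lightoid is known for the pigment granules of the eye. Its signal was 169, 151 and 153 on the PA arrays, against 243, 256 and 255 on the vehicle arrays. Every PA array was below every vehicle array, by a gap several times the spread within either group. The signal averaged 158 ± 9.89 with PA and 251 ± 7.16 with vehicle (SD, n = 3 each). This is a log2 change of -0.67 with a 95% interval of -0.89 to -0.46 (limma, standard error 0.0978, adjusted p = 0.00156). By the maker's naming, the suffix of its probe set 1632119_s_at marks probes that can match transcripts of more than 1 gene, though the annotation names Rab32 alone. The study had listed this gene, as ltd, among those that fell on these same arrays, so its direction here is not independent evidence. A 2-sided exact permutation test gave p = 0.1, which is as low as a design of 3 against 3 arrays can go, so it cannot reach 0.05. The call held under 16 of 18 other settings and was lost with no trend of the variance (adjusted p = 0.174 from limma) and with the methods' t-test after Benjamini-Hochberg adjustment (adjusted p = 0.0629), while the log2 change stayed between -0.76 and -0.51.

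Rab21 acts at early endosomes. The gene (probe set 1624079_a_at) had signals of 199, 194 and 207 on the PA arrays, and of 265, 282 and 259 on the vehicle arrays. Again no PA array reached the lowest vehicle array. The means were 200.0 ± 6.91 with PA and 269 ± 12.1 with vehicle (SD, n = 3 each), and the log2 change was -0.42 with a 95% interval of -0.61 to -0.23 (limma, standard error 0.0883, adjusted p = 0.014). The call held under 12 of 18 other settings. It was lost after quantile normalization (adjusted p = 0.0703 from limma), after cyclic loess (adjusted p = 0.0564), with no trend (adjusted p = 0.267), by the methods' t-test (adjusted p = 0.0755), without PA replicate 2 (adjusted p = 0.0538) and without vehicle replicate 2 (adjusted p = 0.0657). The change was negative under each of these, between -0.51 and -0.33 on the log2 scale over all settings.

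RabX1 (probe set 1624618_at), also named chrowded, works on endosomes in fly tissues. It was the 1 member called higher, with signals of 1029, 993 and 1023 on the PA arrays and of 850, 781 and 813 on the vehicle arrays. The lowest PA array was well above the highest vehicle array. The mean signal was 1015 ± 19.4 with PA and 815 ± 34.6 with vehicle (SD, n = 3 each). The log2 change of 0.32 had a 95% interval of 0.21 to 0.43 (limma, standard error 0.0503, adjusted p = 0.00273). The call held when any 1 of the 6 arrays was left out and after quantile normalization and cyclic loess. It was lost with median centring (log2 change 0.24, adjusted p = 0.156 from limma), with no trend (adjusted p = 0.335) and by the methods' t-test after adjustment (adjusted p = 0.0893).

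**Figure D2:**
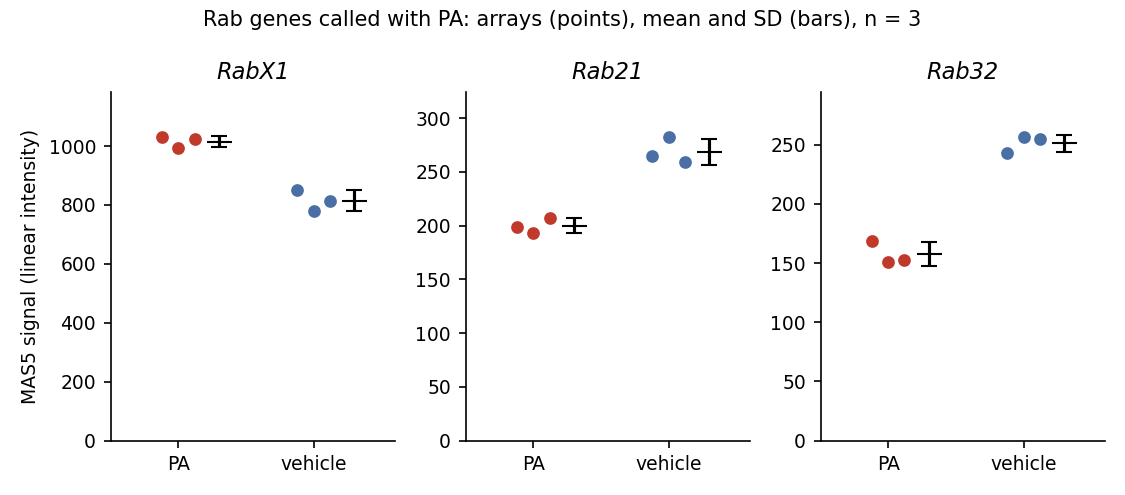
MAS5 signal (y axis, linear intensity starting at 0) of RabX1, Rab21 and Rab32 on each PA array (red) and vehicle array (blue), with the mean and SD of each group (n = 3) beside the points. RabX1 averaged 1015 with PA and 815 with vehicle, Rab21 200.0 and 269, and Rab32 158 and 251, with no overlap of the groups.

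Among the Rab genes of the endoplasmic reticulum and Golgi none was called, and the differences were small. Rab30, a Golgi Rab, had signals of 1683, 1666 and 1734 on the PA arrays and of 1808, 1741 and 1628 on the vehicle arrays, which overlap. Its log2 change was -0.03, with a 95% interval of -0.12 to 0.07. Rab18, which acts on the endoplasmic reticulum and lipid droplets, had signals of 1364, 1459 and 1426 with PA and of 1277, 1267 and 1358 with vehicle. Here each PA array lay above each vehicle array, though the nearest pair, 1364 and 1358, were almost equal. The log2 change of 0.12 (95% interval 0.02 to 0.22) had an unadjusted p of 0.0205 and an adjusted p = 0.175 from limma, and it was called only with the arrays centred on the 75th percentile (adjusted p = 0.0275). For Rab2, which acts in traffic from the endoplasmic reticulum and also in fusion with lysosomes in flies, the PA arrays had signals of 161, 162 and 163 and the vehicle arrays 203, 202 and 171. The PA arrays were below all vehicle arrays, but vehicle replicate 3 was nearer to them than to the other vehicle arrays, and the log2 change of -0.24 (95% interval -0.48 to -0.01) had an adjusted p = 0.279. Rab19, another Golgi Rab, averaged 782 ± 50.8 with PA and 780 ± 15.2 with vehicle (SD, n = 3 each). The 95% interval of its log2 change was -0.12 to 0.12.

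Of the secretory Rab genes, only Rab10 and Rab27 had a signal in the upper 50%, and neither was called. Rab10, which directs secretion of basement membrane proteins in fly epithelia, had signals of 5406, 5376 and 5071 with PA and of 5493, 5289 and 5290 with vehicle. Its log2 change was -0.02 with a 95% interval of -0.10 to 0.06, the narrowest among the members. Rab27, a Rab of secretory granules, averaged 238 ± 17.2 with PA and 224 ± 18.7 with vehicle (SD, n = 3 each), a difference within the spread of either group. Rab3 and Rab26, Rab proteins of synaptic vesicles, were dim. Rab3 had signals of 2.07, 10.0 and 1.33 on the PA arrays and of 0.547, 6.50 and 0.365 on the vehicle arrays, and Rab26 had 3.65 to 13.5 with PA and 2.47 to 4.38 with vehicle. At such signals the 95% interval of the log2 change was -0.94 to 3.88 for Rab3 and -0.73 to 3.01 for Rab26, so neither a rise nor a fall can be told from these arrays.

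The other Rab genes of early endosomes and recycling differed less than Rab21. Rab14, which acts between endosomes and the Golgi, had signals of 1625, 1608 and 1654 with PA and of 1698, 1671 and 1660 with vehicle. No PA array reached a vehicle array, yet the log2 change was -0.04 (95% interval -0.13 to 0.04, adjusted p = 0.695 from limma). Rab35, a Rab of the plasma membrane and recycling endosomes, had 221, 215 and 225 with PA and 251, 267 and 233 with vehicle. Its groups did not overlap either, and the log2 change was -0.18 (95% interval -0.38 to 0.01, adjusted p = 0.326). At the late endosome, Rab9, which acts in return to the Golgi, averaged 438 ± 21.5 with PA and 433 ± 16.3 with vehicle (SD, n = 3 each), with a 95% interval of -0.13 to 0.16 for its log2 change.

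The remaining members are less studied or fall in none of these groups. Rab39 had signals of 1365, 1434 and 1526 with PA and of 1431, 1407 and 1387 with vehicle, and a log2 change of 0.03 with a 95% interval of -0.07 to 0.14. Rab40, whose protein carries a SOCS box and binds ubiquitin ligases, averaged 453 ± 23.2 with PA and 471 ± 22.5 with vehicle (SD, n = 3 each). RabX6 averaged 576 ± 49.3 with PA and 603 ± 22.5 with vehicle (SD, n = 3 each). In both cases the groups of arrays overlap. Rab23, known for planar cell polarity in the fly, had 120, 109 and 133 with PA and 111, 163 and 104 with vehicle, so that vehicle replicate 2 alone set the upper end. RabX4 had 96.5, 111 and 91.8 with PA and 84.9, 101 and 79.5 with vehicle, a log2 change of 0.18 with a wide 95% interval of -0.20 to 0.55. RabX2, RabX5 and Rab9Fb lay in the lower 50% of signal with Rab3 and Rab26, and the signals of these 5 genes ran from 0.365 to 34.6. RabX2 had 12.5, 4.38 and 27.4 with PA and 34.6, 25.5 and 16.3 with vehicle, which overlap. The standard error of the log2 change was 0.702 to 1.19 in these 5 genes and 0.0371 to 0.176 in the other 17. Rab9Fb was brightest on the array numbered 2 in either group, at 14.9 with PA and 15.8 with vehicle, and so was Rab3. The probe set shared by Rab9D, Rab9Db, Rab9E and Rab9Fa was dim as well, at 1.66 to 3.18 with PA and 1.70 to 2.53 with vehicle.

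**Figure D3:**
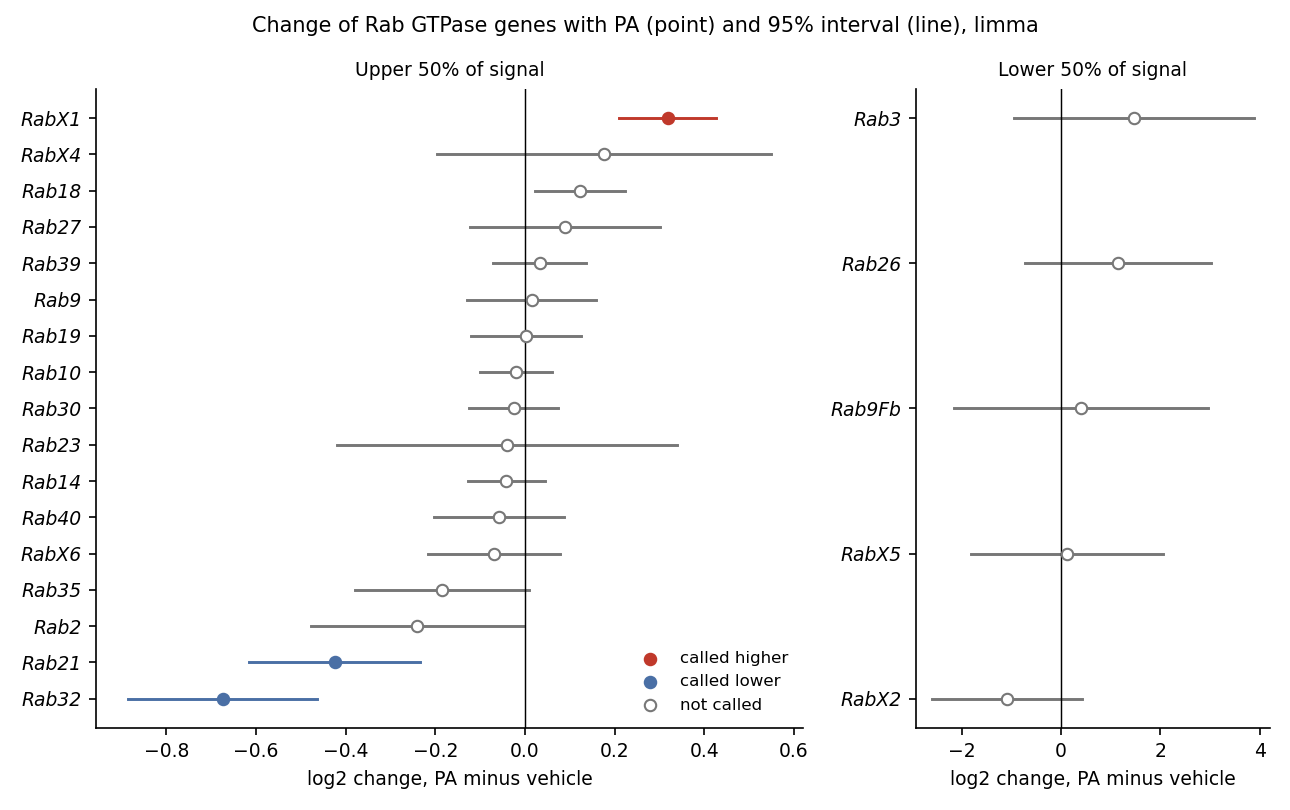
Log2 change of each Rab gene, PA minus vehicle (x axis), with its 95% interval from limma, for the 17 genes in the upper 50% of mean signal (left) and the 5 genes in the lower 50% (right, with a wider axis). RabX1 (0.32) lies to the right of 0, Rab21 (-0.42) and Rab32 (-0.67) to the left, and the 14 open points on the left panel run from -0.24 to 0.18.

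Across the family the changes were thus not in 1 direction. Of the 22 genes 11 had a positive and 11 a negative log2 change, with a median of -0.009, against -0.013 over all probe sets tested. The 5 dim genes, whose direction is uncertain, enter this split. Among the 17 brighter genes 7 changes were positive and 10 negative. Their median was -0.025, against -0.033 for all probe sets in the upper 50% of signal. The median of all 22 members was -0.090 with median centring and 0.071 with centring on the 75th percentile. It was 0.038 after quantile normalization and 0.018 after cyclic loess. With the scaling unchanged it was 0.005 without PA replicate 2 and 0.0035 without vehicle replicate 1. Its sign thus differed with the scaling and with single arrays. Of the 17 brighter genes, 14 were not called, and 9 of the 17 had a 95% interval that lay wholly within 0.25 of 0 on the log2 scale. All PA arrays lay above or below all vehicle arrays for 7 of the 22 genes (31.8%), against 21.5% of all probe sets tested. Since all 7 are among the 17 brighter genes, the closer background is the 33.0% found in the upper 50% of signal, against 41.2% of those members. RabX1 and Rab18 were the genes above, and Rab2, Rab14, Rab21, Rab32 and Rab35 the genes below.

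**Figure D4:**
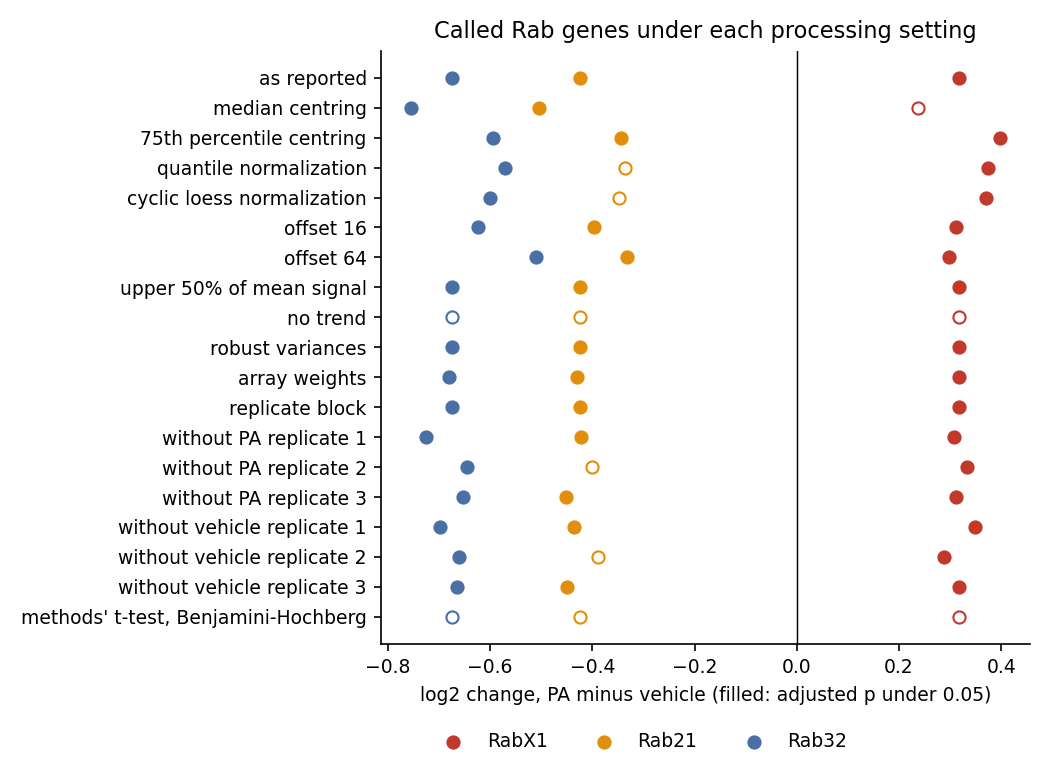
Log2 change (x axis, PA minus vehicle) of RabX1 (red), Rab21 (orange) and Rab32 (blue) as reported and under each of 18 other settings (rows), with filled points where the adjusted p was under 0.05. RabX1 is filled in 15, Rab21 in 12 and Rab32 in 16 of the 18 other settings, and no gene crosses 0.

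Genes that serve Rab proteins, and related genes such as other small GTPases, were described from 7 lists, which together held 105 measured genes. Of these, 0 were called higher and 3 were called lower by limma, or 2.86%, against 10.1% of all probe sets in the upper 50% of signal, where 101 of the 105 lie. At an unadjusted p under 0.05 the limma test gave 24, which is 22.9% against 28.8% of all probe sets in the upper 50% of signal (1676 lower and 1027 higher). All 24 were lower, and they are a larger share of the 105 than the 1676 are of these 9384 probe sets. The methods' t-test gave 18, or 17.1% against 23.5%, and 0 after its adjustment. Pooled over the 7 lists and against both directions together, the shares are thus below those backgrounds. Single lists differ. For the GTPase-activating proteins the called share of 11.8%, from 2 genes, is near the 10.1%. Their shares at an unadjusted p, 41.2% by limma and 29.4% by the methods' t-test, are above the backgrounds. Genes of Rab delivery and lipid attachment gave no call. Gdi, the chaperone that extracts Rab proteins from membranes, averaged 5988 ± 125 with PA and 5964 ± 268 with vehicle (SD, n = 3 each), with a 95% interval of -0.08 to 0.09 for its log2 change. Rep, the escort protein for prenylation, had 1548 ± 28.3 with PA and 1475 ± 45.8 with vehicle (SD, n = 3 each), and RabGGTa, a subunit of the prenylating enzyme, had a log2 change of 0.13 (adjusted p = 0.316). None of these 5 genes had an unadjusted p under 0.05 by either test.

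Of 21 measured genes of exchange factors, 0 were called by limma. At an unadjusted p under 0.05, limma gave 4 or 19.0%, all lower, and the methods' t-test gave 3 or 14.3%. Both are below the shares just given for both directions together in the upper 50% of signal. In the lower direction alone, however, the 4 are a slightly larger share of the 21 than 1676 by limma are of 9384 probe sets. Of the 21, 19 had a negative log2 change, as had 5438 of the 9384 probe sets in the upper 50% of signal. The exchange factor of Rab32, claret (ca), had signals of 721, 641 and 659 with PA and of 755, 727 and 803 with vehicle. The PA arrays lay below the vehicle arrays, narrowly, and the log2 change was -0.18 (95% interval -0.31 to -0.05, adjusted p = 0.127 from limma). For Sbf, an exchange factor of Rab21, the groups overlapped, with 1573 ± 32.9 with PA and 1651 ± 175 with vehicle (SD, n = 3 each, log2 change -0.06, adjusted p = 0.709). The median of the exchange factors was -0.07 and became -0.001 after quantile normalization. Of the 21 genes, 20 lie in deciles 7 to 9 of mean signal, where the median of all probe sets was also -0.07.

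Of 17 measured genes of GTPase-activating proteins, 2 were called lower and 15 were not called. The called share is 11.8%, near the 10.1% of all probe sets in the upper 50% of signal called in either direction. Called lower were 5.59% of those probe sets. At an unadjusted p under 0.05, limma gave 7 or 41.2%, all lower, and the methods' t-test gave 5 or 29.4%. These are above the 28.8% and 23.5% of probe sets in the upper 50% of signal, but rest on few genes. The gene plx (pollux) had signals of 962, 1063 and 943 with PA and of 1364, 1143 and 1170 with vehicle. Its groups did not overlap, with a log2 change of -0.31 (limma, standard error 0.0679, adjusted p = 0.0186). RN-tre had 595, 590 and 542 with PA and 720, 754 and 637 with vehicle, a log2 change of -0.29 (adjusted p = 0.0281). Of 32 measured effectors and tethers, 6 (18.8%) had an unadjusted p under 0.05 by limma, all lower, and 4 (12.5%) by the methods' t-test. These are below the same backgrounds of both directions together. Counting lower alone, the 6 are a slightly larger share of the 32 than 1676 by limma are of those 9384 probe sets. From this list 1 gene (3.12%) was called lower, against 5.59% of all probe sets in the upper 50% of signal. This was Sec10, a subunit of the exocyst that tethers secretory vesicles at the plasma membrane, with 444, 449 and 476 with PA and 564, 580 and 539 with vehicle, and a log2 change of -0.30 (adjusted p = 0.0137). Of 18 other settings, the call held in 9 for plx, 6 for RN-tre and 10 for Sec10. The 3 calls were lost after quantile normalization, with adjusted p = 0.0577 for plx, 0.136 for RN-tre and 0.0936 for Sec10 from limma, and after cyclic loess. They were lost as well with no trend and by the methods' t-test after adjustment. Each was also lost when single arrays were left out, for plx PA replicate 1 or 3 or vehicle replicate 1, for RN-tre each array but vehicle replicate 3, and for Sec10 PA replicate 1 or 2 or vehicle replicate 2.

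Genes of HOPS, CORVET and retromer, complexes that tether membranes at lysosomes or retrieve cargo from endosomes, gave 0 calls among 14 by limma (5 or 35.7% at an unadjusted p under 0.05, and 4 or 28.6% by the methods' t-test, against 28.8% and 23.5% of all probe sets in the upper 50% of signal). With 14 genes these shares, both above the background, rest on few genes. All 5 genes from limma were lower, as were 1676 of the 9384 probe sets in the upper 50% of signal. The largest negative change was that of Vps39, a HOPS subunit, with signals of 270, 266 and 308 with PA and of 342, 314 and 398 with vehicle (log2 change -0.32, adjusted p = 0.0839). Vps11 (-0.21, adjusted p = 0.0553) and Vps16A (-0.20, adjusted p = 0.0684) came nearer to the threshold. The median of this list was -0.10, and -0.06 after quantile normalization. Of 15 genes of pigment granules and lysosome-related organelles, 12 had a negative change and 0 were called by limma. At an unadjusted p under 0.05, limma gave 4 or 26.7%, all lower, and the methods' t-test gave 2 or 13.3%. The same 28.8% and 23.5%, which count both directions, are the background. Against lower probe sets alone, the 4 are a larger share of the 15 than the 1676 are of the 9384. Of the 15, 4 (ca, car, dor and lt) were counted in the exchange factor or HOPS lists as well. The median of the 15 genes, -0.14, against -0.07 for all probe sets in deciles 7 to 9, which hold 14 of the 15, became -0.05 after quantile normalization. The gene g (garnet), a subunit of the AP-3 adaptor, had 745, 692 and 636 with PA and 764, 813 and 830 with vehicle, with a log2 change of -0.22 (adjusted p = 0.0726). None of these genes had a change as large as that of Rab32, which at -0.67 lies outside the range of -0.22 to 0.06 of that list. Of the other small GTPases listed 5 of 19 were measured, and none had an unadjusted p under 0.05 by limma or the methods' t-test.

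**Figure D5:**
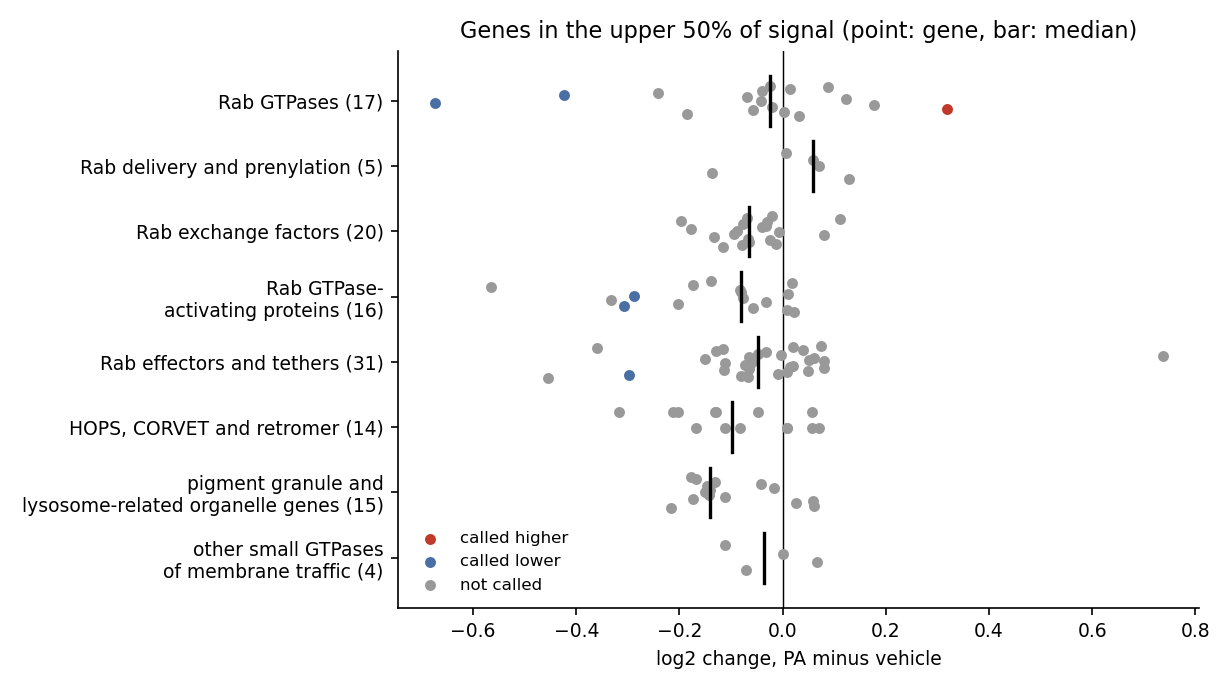
Log2 change, PA minus vehicle (x axis), of the Rab genes and of the genes of the 7 lists (rows, number of genes in parentheses), for genes in the upper 50% of mean signal. Each point is a gene, the black bar is the median of the row, and colour marks genes called higher (red) or lower (blue). Rab32 and Rab21 are the leftmost points and RabX1 the rightmost of the top row, and 3 genes of the other rows are blue.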

How the data were processed

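The authors hybridized RNA of 3 PA-treated and 3 vehicle-treated samples of S2 cells, 1 Affymetrix array each. They deposited a MAS5 signal for each probe set, an intensity on a linear scale, and the version of MAS5 is not given in the sources used here. Groups came from the sample titles. Of 18952 probe sets, 183 controls were left out. Log2 signals with no offset were tested with limma 3.58.1 under R 4.3.3, using lmFit and eBayes with the variance as a trend of the mean signal, and every adjusted p comes from limma unless another test is named. The test was checked on simulated data. Intervals are 95% intervals of the moderated fit. Exact permutation tests were run in Python 3.11.15.

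Probe sets were named from the annotation of the array platform, with symbols updated through gene identifiers for 13544 of the 13647 tested probe sets with 1 gene. List symbols were matched by symbol or unique synonym. No positions or sequences are given, since the sources used here name no genome build for the probe sets. The members, lists, tests and naming rule were chosen with earlier results of these data known. Values on every array are given for called members, the 5 brightest members and brighter members with a log2 change past 0.25, and from each list for called genes. Further genes named with their values were chosen after these were seen.

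As alternatives, arrays were centred on the median or on the 75th percentile, or normalized by quantiles or by cyclic loess. Others were an offset of 16 or 64, a filter on the upper 50% of signal, other variance models, array weights, the sample number as a block, all Rab probe sets, leaving out each array, and the methods' t-test (2-sided Student's test on log2 signals, unadjusted p under 0.05 with ratios over 1.5 or under 0.67, and Benjamini-Hochberg adjusted). Arrays limit the precision by their number. Raw probe intensities were not analysed here.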

Additional observations from a re-analysis of the deposited data

How the results depend on the processing

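The count of Rab genes called higher, 1 as reported, became 0 with median centring, with no trend and with the methods' t-test past its fold limits, unadjusted or adjusted, and 2 with centring on the 75th percentile. The count called lower, 2 as reported, became 1 after quantile normalization, after cyclic loess and with the methods' t-test past its fold limits, and 0 with no trend and with that test after adjustment. Leaving out 1 array gave 1 higher each time and 1 to 2 lower (1 without PA replicate 2 and 1 without vehicle replicate 2). The median change of the Rab genes, -0.01 as reported, moved to -0.090 with median centring, 0.071 with centring on the 75th percentile and 0.038 after quantile normalization. For the genes of the 7 lists, 0 were called higher as reported and 1 with centring on the 75th percentile. Called lower were 3 as reported, 1 with centring on the 75th percentile, and 0 after quantile normalization and after cyclic loess. Offsets of 16 or 64 gave 1 lower, and no trend gave 0. Fitting and adjusting only the upper 50% of signal gave 8 lower, and leaving out 1 array gave 1 to 4. The cause of these moves was not tested. Arrays with the same number did not deviate together (residual correlations of -0.001, 0.019 and -0.002 over all probe sets). With the number as a replicate block 1 Rab gene was called higher and 2 lower, as without it, and 0 list genes were called higher and 5 lower. Over all probe sets the methods' t-test called 38 after adjustment. Dim probe sets limit the rest, since for the 5 Rab genes in the lower 50% of signal the standard error was at least 0.702.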
